A study of Mus musculus with 4 samples.

Results

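The 38 listed Hox genes and the span of their 4 clusters were followed through whole-genome bisulfite sequencing of the mouse colon epithelium, which tells methylated from unmethylated cytosines because bisulfite converts only the latter. All 38 symbols were found among 21281 protein-coding autosomal genes of the GENCODE M1 annotation (mouse build mm9), 10 in HoxA, 10 in HoxB, 9 in HoxC and 9 in HoxD. Each span, from the first to the last base of the listed genes of a cluster, was cut into 200-bp bins, and 1556 bins of the 4 spans, of 4076373 autosomal bins in all, passed the minimum of 2 CpGs and of 10 calls per library. A call is 1 read of 1 CpG cytosine, and the methylation level of a bin or region is the percentage of its calls that were methylated.

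The DNA came from sorted cells of offspring of Lgr5-EGFP-CreER mice and wild-type C57 mice, in which EGFP and CreER are expressed under the control of the endogenous Lgr5 gene, a marker of intestinal stem cells (ISCs). The 4 groups were ISCs (Lgr5-EGFP-positive) and differentiated epithelial cells (EpCAM-positive and Lgr5-EGFP-negative), each from newborn mice (P0) and from mice of postnatal day 21 (P21). Each group had 1 library made from DNA pooled over several mice, so that animals could not be compared, and every test below compares single libraries and not the ages or the cell types. The paper pooled litters for the P0 samples, without naming carriers, and EGFP-positive offspring for the P21 samples, so the pools differed between ages. It also reports crypts without EGFP in this mouse line, so stem cells may be among the Lgr5-EGFP-negative cells.

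Hox genes encode homeodomain transcription factors that give cells their position along the body axis, and their order on the chromosome, from the 3' to the 5' end of a cluster, follows the order of the body regions in which they are used. Low paralog numbers (here 1 to 4, called anterior) lie at the 3' end and high numbers (9 to 13, called posterior) at the 5' end, with 5 to 8 called central. Inactive Hox clusters are usually held silent by Polycomb proteins over CpG-rich DNA that carries little DNA methylation, and posterior genes such as Hoxa13 and Hoxd13 are used by the hindgut, from which the colon forms.

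Sequencing gave between 1023427645 and 1188114423 calls per library. The median Hox bin had 98.5, 154, 107 and 134.5 calls (P0 ISCs, P0 differentiated cells, P21 ISCs, P21 differentiated cells, the order in which 4 values are given throughout), against 55, 81, 58 and 68 for all bins, so that differences were easier to detect in the Hox spans than in the average bin. The promoters of marker genes were examined in the libraries, which cannot check the labels of population or age. No library of another cell type was compared, so low levels at epithelial markers do not establish an epithelial origin. The promoters of 7 to 8 of 9 epithelial markers were below 10% in each library and that of Krt20, a marker of mature surface cells, was above 50%, while the promoters of 7 of 7 immune genes lay between 61.7% and 89.0%. Of 9 markers of mesenchyme, endothelium, glia and muscle, 2 to 3 were below 10% and 2 to 3 above 50%. No marker promoter was called with age or between populations, nor was any body or last exon of the immune or mesenchymal lists. These lists hold 7 to 9 genes, and 0.340% to 3.55% of all regions of a kind were called in a comparison, so that 0 calls tell little. Among the epithelial markers, the Epcam body was lower at P21 in ISCs (63.4% to 44.6%) and in differentiated cells (57.7% to 39.97%), and the Krt20 last exon was higher in both (25.4% to 53.8% and 22.95% to 49.4%). The last exons of Cdhr5 (higher) and Cdx2 (lower) were called in ISCs, those of Vil1 and Krt8 (both lower) in differentiated cells, and that of Krt8 also between populations at P21, lower in differentiated cells. The part of these genes and of other cell types in the Hox results was not tested. In bulk DNA a change within cells and a change in the share of cell types cannot be told apart.

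The 4 clusters differed in methylation before any comparison of ages. The mean level over bins in ISCs at P0 was 6.69% in HoxC, 18.7% in HoxA, 27.6% in HoxD and 39.7% in HoxB, against 77.0% over all autosomal bins. In HoxC, 79.4% of bins were below 10%, a state held by 4.82% of all bins. CpG islands (CGIs, here windows of 500 bp with at least 25 CpGs) covered 548 of the 1556 bins, and the mean level of these Hox CGI bins was 10.5% against 31.5% for all CGI bins. The plot of methylation along the clusters shows HoxC as low apart from single windows, and in HoxB a long methylated stretch between Hoxb9 and Hoxb13.

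**Figure D1:**
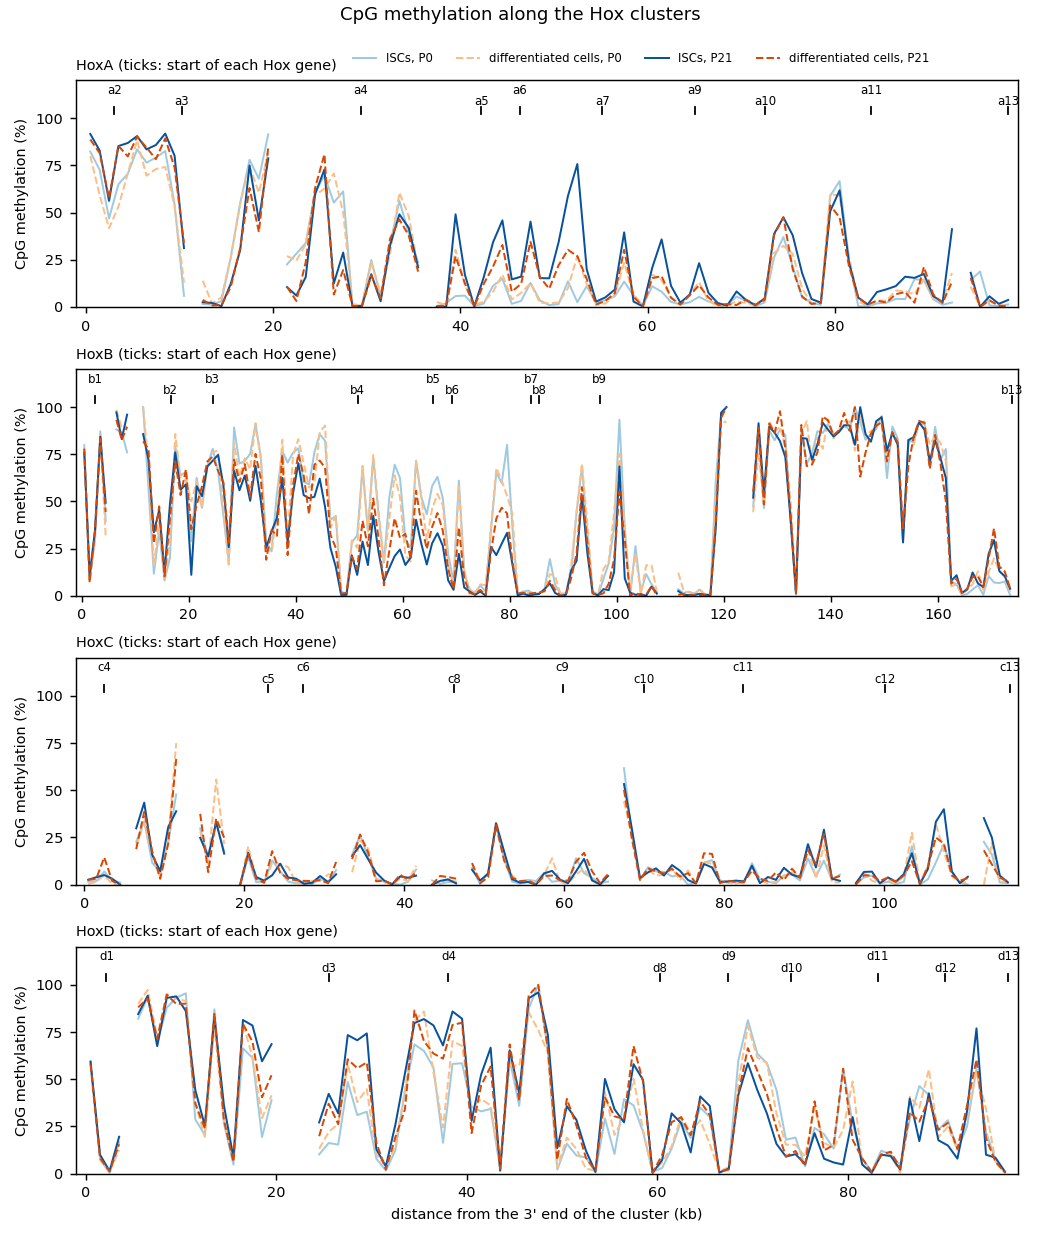
CpG methylation (%) in windows of 1 kb along HoxA, HoxB, HoxC and HoxD, plotted against the distance (kb) from the 3' end of each cluster. Lines are the 4 libraries (solid for ISCs, dashed for differentiated cells, pale at P0 and dark at P21), breaks are windows without a tested bin, and ticks mark gene starts. HoxC is low in most windows of the 4 libraries, while the lines of P0 and P21 part in the centre of HoxA, in the Hoxb4 to Hoxb7 part of HoxB and around Hoxd3 and Hoxd4.

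The promoters (1 kb on each side of the transcription start) were mostly free of methylation. Of 38 Hox promoters, 23 were below 10% in the 4 libraries, made up of 5 in HoxA, 5 in HoxB, 9 in HoxC and 4 in HoxD. The median Hox promoter in ISCs at P0 had 2.71% against 13.3% for all genes. Bodies (the transcript outside the promoter and the last exon) and last exons differed more from the rest of the genome, with medians of 6.06% against 81.2% for bodies and 16.05% against 86.4% for last exons. A methylated body is the usual state of a mouse gene.

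In ISCs at P0 the highest region level was 85.6% in HoxA, 74.4% in HoxB, 55.9% in HoxD and 29.3% in HoxC. In HoxA the lowest promoter was that of Hoxa11 (0.230%), a posterior gene of limb and reproductive tract, and the highest that of Hoxa2 (56.8%), which patterns the hindbrain. The lowest and highest bodies were those of Hoxa4 (0.833%) and Hoxa3 (82.6%), and the last exons those of Hoxa13 (1.76%), a hindgut gene, and Hoxa2 (85.6%). The highest level of each kind of region in HoxA was thus in an anterior gene.

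In HoxB the lowest promoter was that of Hoxb13 (0.998%), which is expressed in the distal colon and the prostate, and the highest that of Hoxb3 (74.4%). Stretches of 2 bins over further annotated Hoxb3 starts stood at 10.5% (chr11:96202001-96202400) and 86.2% (chr11:96184401-96184800), so the Hoxb3 level depends on the start used. The bodies of Hoxb1, a hindbrain gene, and Hoxb3 stood at 0% and 68.9%, and the last exons of Hoxb8 and Hoxb5 at 0.913% and 69.8%. In HoxD the promoters ran from Hoxd1 (1.23%) to Hoxd4 (25.7%). The HoxD bodies ran from Hoxd9 (0.938%) to Hoxd10 (48.8%) and the last exons from Hoxd13 (13.9%) to Hoxd4 (55.9%).

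HoxC had the smallest range of levels of the 4 clusters. Its 9 promoters lay between 0.380% and 4.94% over the 4 libraries, from Hoxc6 (0.380%) to Hoxc10 (4.90%) in ISCs at P0. The HoxC body with the highest level was that of Hoxc10 (29.3%) and the lowest that of Hoxc5 (0%), and the last exons ran from Hoxc10 (0.9302%) to Hoxc9 (17.1%). Levels differed within paralog group 4. The promoters of Hoxa4, Hoxb4, Hoxc4 and Hoxd4, which arose from the same ancestral gene, stood at 2.69%, 42.9%, 2.73% and 25.7% in ISCs at P0 and at 1.16%, 23.9%, 3.42% and 70.4% at P21.

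The first question was whether the clusters changed in ISCs between birth and P21. Most called bins of HoxA and HoxD were higher at P21, most of those of HoxB were lower, and HoxC had none, so that a mean over the 4 clusters hid opposite changes. The mean level of HoxA was 18.7% at P0 and 24.6% at P21 and that of HoxD 27.6% and 33.9%. The mean of HoxB was 39.7% and 33.9%, that of HoxC was 6.69% and 7.90%, and that of the 4 clusters together 25.4% and 26.3%. These means carry no test, since 1 library per group gives no spread between animals.

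A bin was called when its adjusted p was below 0.05 (Fisher's exact test, two-sided, Benjamini-Hochberg over all tested bins) and its level differed by more than 15 points. In ISCs, 123 Hox bins were higher at P21 (7.90%, against 1.07% of all bins) and 96 were lower (6.17%, against 1.48% of all bins). HoxA had 48 higher and 9 lower bins of 348, HoxB 19 and 68 of 544, and HoxD 56 and 19 of 334. In HoxC 0 of 330 bins were called in either direction, while 34 (10.3%, against 12.8% of all bins) had an unadjusted p below 0.05 by the same test. The lack of calls in HoxC does not show that its level was equal at both ages, and bins below 15% at P0 could not be called lower.

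**Figure D2:**
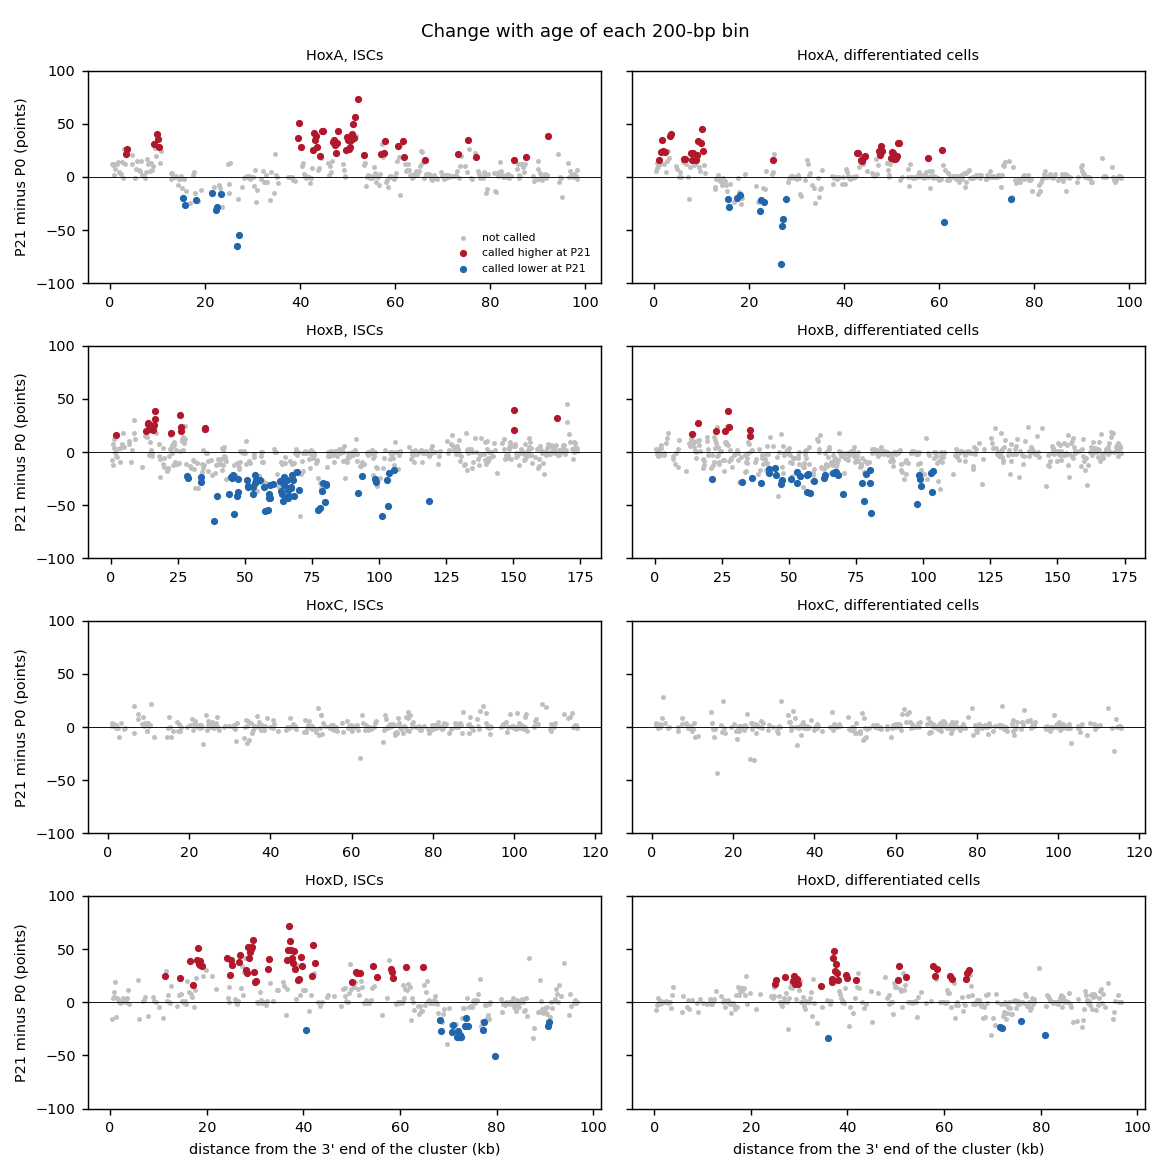
Difference in CpG methylation (P21 minus P0, percentage points) of every tested 200-bp bin against the distance (kb) from the 3' end of the cluster, for ISCs (left) and differentiated cells (right). Red and blue points are bins called higher or lower at P21 and grey points are not called. In parts of the clusters the called bins have 1 direction, such as the 32 higher bins in central HoxA and the 32 lower bins in central HoxB of ISCs. Other parts hold both, such as anterior HoxA (6 higher and 9 lower) and anterior HoxB (16 and 26) of ISCs.

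**Figure D3:**
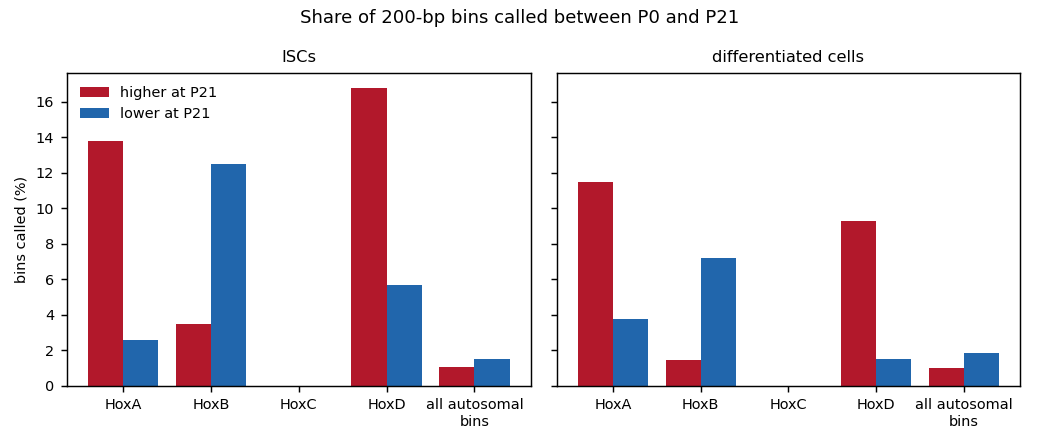
Percentage of 200-bp bins called higher (red) or lower (blue) at P21 in each Hox cluster and among all autosomal bins, for ISCs (left) and differentiated cells (right). In ISCs the gains reach 13.8% of bins in HoxA and 16.8% in HoxD, the losses 12.5% in HoxB, and HoxC has no called bin.

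The counts of higher and lower bins in ISCs differed between position classes and between clusters. Bins were assigned to the class of the nearest gene start. In central HoxA, 32 of 93 bins were higher and 0 lower, and the mean level was 5.57% at P0 and 19.9% at P21. In central HoxB the count was 0 higher and 32 lower of 129, with means of 24.2% and 11.4%. In anterior HoxD, 45 of 152 bins were higher and 1 lower, with means of 36.2% and 51.4%, whereas posterior HoxD had 1 higher and 18 lower of 130. Over all bins 1.07% were higher and 1.48% lower. Anterior HoxA had 6 higher and 9 lower of 112, anterior HoxB 16 and 26 of 179, and posterior HoxB 3 and 10 of 236, its share of higher bins being near that of all bins. Central HoxD had 10 higher and 0 lower of 52, and posterior HoxA 10 and 0 of 143. The bins nearest Hoxa5 (9 higher and 0 lower of 30) and Hoxb5 (0 and 21 of 33) were thus called in opposite directions. So were those nearest Hoxa6 (14 and 0 of 24) and Hoxb6 (0 and 4 of 36). The same held for Hoxa7 (9 and 0 of 39) and Hoxb7 (0 and 7 of 32). It also held for Hoxa9 (4 and 0 of 41) and Hoxb9 (0 and 10 of 118). Calls had the same direction nearest Hoxa4 (0 and 6 of 44) and Hoxb4 (0 and 22 of 71). They also did nearest Hoxa2 (2 and 0 of 25) and Hoxb2 (9 and 0 of 27), and nearest Hoxa13 (1 and 0 of 21) and Hoxb13 (3 and 0 of 118). Bins nearest Hoxa3 (4 and 3 of 43) and Hoxb3 (6 and 4 of 58) were called in both directions. The mean level in ISCs at P0 was 4.18% nearest Hoxa5 and 51.4% nearest Hoxb5, so that losses could hardly be called at Hoxa5. It was also low nearest Hoxa6 (6.14%), Hoxa7 (6.28%) and Hoxa9 (3.92%).

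Of the 548 Hox CGI bins, 46 were higher in ISCs at P21 (8.39%, against 1.37% of all CGI bins) and 26 were lower (4.74%, against 0.392%). By size alone, without a test, 0 of 122 CGI bins of HoxC moved by more than 15 points, against 5781 of 150844 among all CGI bins. In HoxB the share of bins called lower was alike inside CGIs (17 of 145, 11.7%) and outside them (51 of 399, 12.8%), while 14 (9.66%) were called higher inside and 5 (1.25%) outside. Of the 1008 other Hox bins, 77 were higher (7.64%, against 1.06% of all bins outside CGIs) and 70 were lower (6.94%, against 1.52%).

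The 3 longest blocks of gain were made of adjacent bins that were all called. The longest ran over 11 bins at chr2:74573001-74575200, between Hoxd4 and the promoter of Hoxd3, and contained the start of 1 further annotated Hoxd3 transcript. Its levels were 29.1% (95% Wilson interval 26.9 to 31.4), 36.7% (35.0 to 38.4), 69.2% (67 to 71.2) and 54.3% (52.5 to 56.1) in the 4 libraries. The ISCs at P21 were thus the highest library and the ISCs at P0 the lowest. The block was chosen on the difference between these ISC libraries, which favours this order. These intervals cover counting error only, because each group had 1 library. They take calls as independent, although 1 read can hold several CpGs. PCR copies of 1 molecule could also not be told from separate molecules by a molecular identifier. The intervals may therefore be too narrow.

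The second block of gain ran over 10 bins at chr6:52162001-52164000, between Hoxa6 and Hoxa7 and within the non-coding gene 2700086A05Rik, and contained the starts of 4 annotated Hoxa3 transcripts that begin far upstream of the coding part. It was nearly unmethylated at P0 in both populations, at 2.39% (1.72 to 3.30) and 2.73% (2.24 to 3.33), and stood at 38.1% (36.0 to 40.4) and 22.5% (21.0 to 24.1) at P21. The third ran over 9 bins at chr2:74564801-74566600 and covered the start of Hoxd4 and part of its promoter, body and last exon, with 22.0% (19.9 to 24.3), 29.4% (27.7 to 31.3), 69.7% (67.3 to 72.0) and 59.1% (57.0 to 61.1). All 3 blocks overlapped an annotated start of a Hox transcript, whereas the next longest blocks of gain, of 6, 5 and 5 bins, held none. How often stretches of such length hold a start within the clusters was not counted.

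The 3 longest blocks of loss in ISCs lay in HoxB and HoxD. The first covered the start of Hoxb5 with 6 bins at chr11:96163001-96164200, at 66.5% (63.7 to 69.1), 52.0% (49.7 to 54.3), 26.5% (24.2 to 29.0) and 41.0% (38.7 to 43.4). The second lay in the body of Hoxd10 with 6 bins at chr2:74530401-74531600, at 48.0% (45.1 to 51.0), 32.7% (31.0 to 34.5), 16.7% (14.6 to 19.1) and 26.3% (24.4 to 28.4). The third, 5 bins at chr11:96164801-96165800, lay in the promoter and body of Hoxb5, at 49.8% (46.7 to 52.9), 32.9% (31.1 to 34.7), 17.2% (15.3 to 19.4) and 25.4% (23.6 to 27.3). In the 3 losing blocks the order was the mirror image of that in the gaining HoxD blocks, with ISCs at P0 the highest and ISCs at P21 the lowest library. These blocks were likewise chosen on the ISC difference, which favours this order.

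The bin with the largest ISC difference outside untranslated regions is shown for 5 of these blocks, to give the CpGs behind the change. Sequences are the plus strand of mm9, 5' to 3', with CpGs in capitals.
HoxD gain, chr2:74573601-74573800: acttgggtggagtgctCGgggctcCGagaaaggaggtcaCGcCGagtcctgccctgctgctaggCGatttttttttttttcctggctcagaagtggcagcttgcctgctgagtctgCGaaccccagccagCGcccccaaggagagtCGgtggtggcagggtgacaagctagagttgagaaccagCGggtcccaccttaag
HoxA gain, chr6:52163801-52164000: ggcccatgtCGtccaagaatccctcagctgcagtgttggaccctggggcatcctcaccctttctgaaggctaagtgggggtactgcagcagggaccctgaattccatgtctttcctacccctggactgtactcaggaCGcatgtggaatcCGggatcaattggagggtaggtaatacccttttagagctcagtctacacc
Hoxd4 gain, chr2:74566001-74566200: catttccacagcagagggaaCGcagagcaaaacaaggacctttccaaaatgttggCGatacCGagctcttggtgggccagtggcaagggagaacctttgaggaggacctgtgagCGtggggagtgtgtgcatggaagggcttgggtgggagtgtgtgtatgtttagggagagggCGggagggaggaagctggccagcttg
Hoxd10 loss, chr2:74530801-74531000: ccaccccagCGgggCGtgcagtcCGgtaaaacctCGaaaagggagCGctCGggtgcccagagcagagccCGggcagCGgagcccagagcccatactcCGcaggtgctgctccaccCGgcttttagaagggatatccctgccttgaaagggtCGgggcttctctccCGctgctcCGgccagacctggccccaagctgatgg
Hoxb5 loss, chr11:96165201-96165400: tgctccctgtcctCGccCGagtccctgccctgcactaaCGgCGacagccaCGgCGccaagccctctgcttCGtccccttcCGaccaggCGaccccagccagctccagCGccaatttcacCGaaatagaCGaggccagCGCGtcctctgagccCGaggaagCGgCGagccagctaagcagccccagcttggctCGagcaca

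In the gaining bins the CpGs had the same direction. Each bin shown was chosen for its large ISC difference, so agreement among its CpGs in ISCs is no separate support. In the HoxD bin all 9 CpGs were higher at P21 in ISCs and in differentiated cells, and the bin stood at 12.9%, 39.5%, 71.1% and 61.4%. In the HoxA bin all 3 CpGs were higher in both populations (10.96%, 1.41%, 67.2% and 33.8%), as were all 5 CpGs of the Hoxd4 bin (14.9%, 24.6%, 86.9% and 66.0%). In the losing bin of Hoxd10, 1 of 13 CpGs was higher at P21 in ISCs and 2 in differentiated cells, and in that of Hoxb5, 0 of 18 were higher in ISCs and 3 in differentiated cells. The Hoxb5 bin, which encodes part of the Hoxb5 protein, stood at 55.9%, 37.0%, 10.1% and 23.5%.

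Gene regions were tested on their summed calls with the same criteria. In ISCs, 24 of 112 tested regions were called, 14 higher at P21 in 10 genes and 10 lower in 5 genes (2 bodies, of Hoxc4 and Hoxd12, had no tested bin). By kind, 4 promoters were higher and 2 lower of 38 (2.06% of all promoters were called in either direction), 3 bodies were higher and 3 lower of 36 (1.20% of all bodies), and 7 last exons were higher and 5 lower of 38 (3.55% of all last exons). The median difference over the Hox genes was 0.175 points for promoters, 0.748 for bodies and 2.41 for last exons, against -0.0525, -0.102 and 0.327 over all genes. The calls thus fell on a minority of the regions, and the median differences of promoters and bodies were below 1 point.

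**Figure D4:**
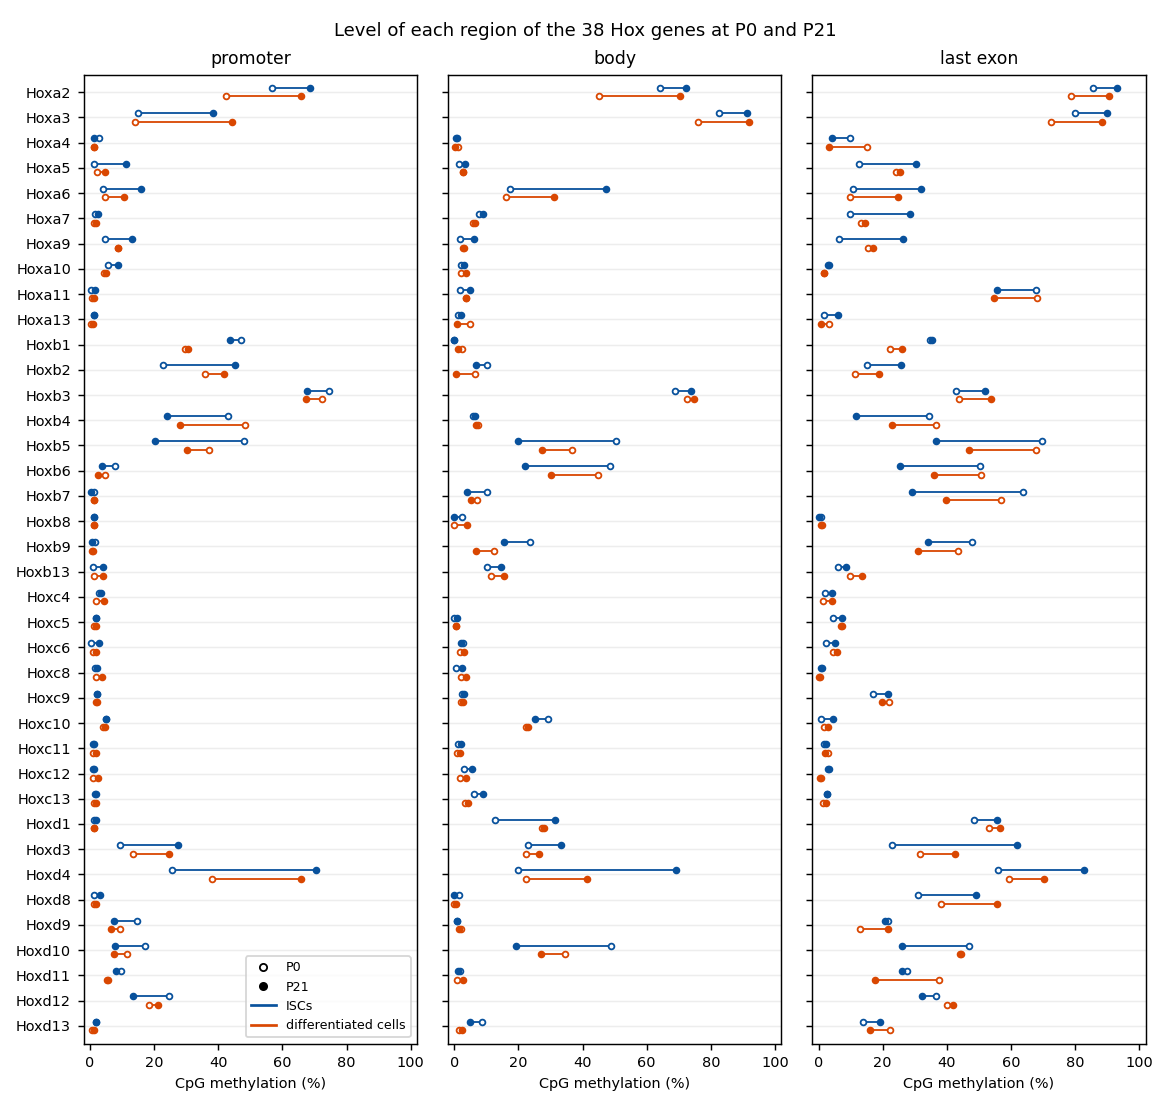
CpG methylation (%) of the promoter, body and last exon of each of the 38 Hox genes at P0 (open) and P21 (filled), in ISCs (blue) and differentiated cells (orange). The longest lines are those of Hoxd4, Hoxd3, Hoxa3 and Hoxa6 to the right with age and of Hoxb5, Hoxb7 and Hoxd10 to the left, while the HoxC genes have short lines.

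Hoxd4 and Hoxd3, genes of the hindbrain and cervical spine, had the largest differences in ISCs. The Hoxd4 promoter stood at 25.7% (23.2 to 28.2), 37.9% (35.8 to 39.98), 70.4% (67.8 to 72.9) and 65.6% (63.4 to 67.8), and rose by 44.7 points in ISCs (Fisher's exact test, adjusted p = 2.85e-105). Its body, which holds 1 tested bin, rose from 19.9% to 69.1% (Fisher's exact test, adjusted p = 2.40e-19) and its last exon from 55.9% to 82.9% (adjusted p = 7.58e-13). The promoter, body and last exon of the transcript used were thus each called higher in ISCs, that of the last exon being lost when levels were averaged over bins (13.3 points).

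The last exon of Hoxd3 stood at 22.8% (20.4 to 25.5), 31.6% (29.98 to 33.2), 61.9% (59.4 to 64.4) and 42.7% (40.8 to 44.5), and rose in ISCs with an adjusted p of 4.38e-83 (Fisher's exact test). Its promoter rose from 9.22% to 27.3% in ISCs. The promoter calls of both genes depend on the transcript: where several transcripts with equally long coding sequences were annotated, the shortest was used, and with the longest the ISC difference was 0.347 points for Hoxd3 and 5.96 for Hoxd4, neither of them called (Hoxd3 was also not called with promoters of 2 kb on each side, at 12.6 points, or averaged over bins, at 14.7), and that of Hoxd4 in differentiated cells was -0.763.

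In HoxA the called regions with the largest differences in ISCs were those of Hoxa6 and Hoxa3, and the last exons of Hoxa5, Hoxa7 and Hoxa9 were also called higher. The Hoxa3 promoter stood at 15.1% (12.9 to 17.5), 14.1% (12.7 to 15.6), 38.5% (35.7 to 41.3) and 44.1% (41.9 to 46.4), with both libraries of P21 above both of P0 (ISCs, Fisher's exact test, adjusted p = 4.15e-31). The body of Hoxa6, a gene of the trunk skeleton, stood at 17.4%, 15.97%, 47.4% and 31.2% (ISCs, Fisher's exact test, adjusted p = 2.09e-11), and its last exon rose from 10.8% to 31.9% in ISCs. The promoter of Hoxb2, a hindbrain gene, rose in ISCs from 22.8% to 45.2% (Fisher's exact test, adjusted p = 6.92e-15). Hoxb2 was the exception in its cluster, as the other called HoxB regions were lower at P21. With promoters of 2 kb on each side its difference was 3.17 points and was not called.

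The losses in ISCs centred on Hoxb4 to Hoxb7. The Hoxb5 promoter stood at 48.1% (45.9 to 50.3), 37.1% (35.4 to 38.8), 20.2% (18.6 to 22.0) and 30.1% (28.6 to 31.7), a fall in ISCs with an adjusted p of 1.36e-78 (Fisher's exact test). Its body fell in ISCs from 50.6% to 19.9% (-9.31 points and not called with promoters of 2 kb on each side) and its last exon from 69.8% to 36.8%. Hoxb5 is used by gut mesenchyme and the enteric nervous system as well as by other trunk tissues.

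The last exon of Hoxb7 stood at 63.8% (60.8 to 66.7), 56.8% (53.9 to 59.7), 29.2% (26.3 to 32.2) and 39.8% (36.9 to 42.7), lower at P21 in both populations (ISCs, Fisher's exact test, adjusted p = 1.94e-50). In Hoxb6, the body fell from 48.5% to 22.2% (-7.89 points and not called with the longest transcript) and the last exon from 50.4% to 25.3% in ISCs. In Hoxb4, a gene best known from blood stem cells, the promoter fell from 42.9% to 23.9% and the last exon from 34.4% to 11.7%. With promoters of 2 kb on each side the Hoxb4 difference was -6.94 points and was not called. The promoters of Hoxb6 (7.66% and 3.83%) and Hoxb7 (1.18% and 0.417%) were low at both ages and were not called.

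Among posterior genes, the regions called lower in ISCs were those of Hoxd10, a gene of the limb and the lumbar spinal cord. The Hoxd10 body stood at 48.8% (46.1 to 51.6), 34.5% (32.9 to 36.2), 19.3% (17.2 to 21.6) and 27.0% (25.2 to 29.0), and fell in ISCs with an adjusted p of 4.73e-53 (Fisher's exact test). Its last exon stood at 46.9%, 44.3%, 26.1% and 44.2%, so that ISCs at P21 were below the other 3 libraries. Bins called lower in ISCs also lay nearest Hoxb9 (10 of 118), Hoxd9 (3 of 31), Hoxd12 (2 of 26) and Hoxd11 (1 of 30), against 1.48% of all bins. The remaining 5 genes with a called region in ISCs (Hoxa5, Hoxa7, Hoxa9, Hoxd1 and Hoxd8) were higher at P21 by 17.9 to 19.97 points. Of these calls, that of the Hoxd1 body was lost with promoters of 500 bp on each side (6.14 points) and that of the Hoxd8 last exon with promoters of 2 kb (12.95 points). Of the 47 regions of posterior genes, 3 were called, against 10 of 32 in anterior and 11 of 33 in central genes. Over all genes 2.06% of promoters, 1.2% of bodies and 3.55% of last exons were called. The difference between the classes was not tested.

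Differentiated cells, whose libraries are separate from those of ISCs, were compared between ages in the same way. The paper describes a pool of mice for each age and not for each population, so the populations of an age may share animals. A change shared by both populations is then not independent agreement on age. Between P0 and P21, 79 Hox bins were higher (5.08%, against 0.992% of all bins) and 57 were lower (3.66%, against 1.86%). HoxA had 40 higher and 13 lower, HoxB 8 and 39, HoxD 31 and 5, and HoxC 0 of 330, with 35 (10.6%, against 14.1% of all bins) at an unadjusted p below 0.05 by Fisher's exact test. Of the CGI bins, 38 were higher (6.93%, against 1.21%) and 9 were lower (1.64%, against 0.327%). Each of HoxA, HoxB and HoxD had more calls in the direction of ISCs, but in HoxB 8 of 145 CGI bins were higher and 8 lower (5.52% each), against 0 and 31 of 399 outside CGIs (7.77% lower).

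Of the 219 bins called in ISCs, 85 were called in the same direction in differentiated cells, which is 38.8% of the ISC bins and 62.5% of the 136 differentiated-cell bins, and 0 in the opposite direction. Over all autosomal bins the shared bins were 36.3% of the ISC list and 32.5% of the differentiated-cell list. Opposite directions were found in 320 of the 104153 bins called in ISCs, so that 0 of 219 Hox bins is near the share of all bins. The shared part differed by direction: 40.7% of the Hox gains of ISCs were shared, against 23.7% of all gains, and 36.5% of the Hox losses, against 45.4% of all losses. HoxA gains were shared by 25 of 48 bins (52.1%) and HoxB losses by 28 of 68 (41.2%). Of the 19 HoxD losses of ISCs, 1 was shared (5.26%), and their median difference in differentiated cells was -3.17 points.

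In gene regions, 10 were higher and 4 lower at P21 in differentiated cells. By kind, 3 promoters were higher and 1 lower (1.83% of all promoters called), 4 bodies were higher and 0 lower (1.08% of all bodies), and 3 last exons were higher and 3 lower (3.19% of all last exons). The Hoxa3 promoter rose by 29.99 points (Fisher's exact test, adjusted p = 2.68e-98), with its body from 76.1% to 91.9% and its last exon from 72.4% to 88.3%. The Hoxa2 promoter stood at 56.8%, 42.3%, 68.6% and 65.8% (differentiated cells, Fisher's exact test, adjusted p = 1.77e-46) and its body at 64.3%, 45.1%, 72.1% and 70.3%. At Hoxa2 the low library was that of differentiated cells at P0.

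The Hoxd4 promoter and body also rose in differentiated cells, by 27.8 and 18.8 points, as did the body and last exon of Hoxa6, by 15.2 and 15.03 points. The last exon of Hoxd8 rose from 38.3% to 55.7% (14.5 points and not called with promoters of 2 kb on each side). The regions that fell were the Hoxb4 promoter (48.3% to 28.0%), the last exons of Hoxb5 (68.0% to 46.8%) and Hoxb7 (56.8% to 39.8%) and the last exon of Hoxd11 (37.6% to 17.6%). The calls of the Hoxb4 promoter, the Hoxb7 last exon and both Hoxa6 regions were lost when levels were averaged over bins (-14.0, -14.4, 14.5 and 14.2 points), and that of the Hoxa3 body with the longest transcript (2.12 points). Hoxd11, a limb and kidney gene, was called in differentiated cells only, its last exon standing at 27.5% and 26.0% in ISCs.

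The 3 longest blocks of gain in differentiated cells were 9 bins at chr6:52162201-52164000 (2.85% at P0 and 23.8% at P21), 8 bins at chr2:74565001-74566600 (27.6% and 58.1%) and 4 bins at chr6:52159601-52160400 from the upstream edge of the Hoxa6 promoter outwards (11.4% and 35.9%). The first lies in the HoxA block of ISCs and the second in the Hoxd4 block. The 3 longest blocks of loss had 3 bins each. They lay at chr6:52139001-52139600 within 2700086A05Rik (64.4% at P0 and 13.7% at P21), at chr11:96149001-96149600 in the body of Hoxb7 (49.6% and 21.5%) and at chr11:96172401-96173000 between genes (27.1% and 2.98%). ISCs moved the same way in these 3 blocks, from 59.8% to 17.6%, from 46.1% to 17.8% and from 27.3% to 6.76%.

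Whether the change with age differed between the populations was tested directly (two-sided Wald test of the difference between the changes, Benjamini-Hochberg over all tested bins). The changes differed in 70 Hox bins (4.50%, against 0.413% of all bins), of which 19 lay in HoxA, 19 in HoxB, 1 in HoxC and 31 in HoxD. In HoxA the ISC change was the more positive in 18 of 19 bins and in HoxB the more negative in 18 of 19, while in HoxD it was the more positive in 21 of 31 and the more negative in 10. With calls thinned to the shallowest library of each bin, 37 Hox bins passed the threshold, and the share of all bins that passed after thinning was not counted.

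**Figure D5:**
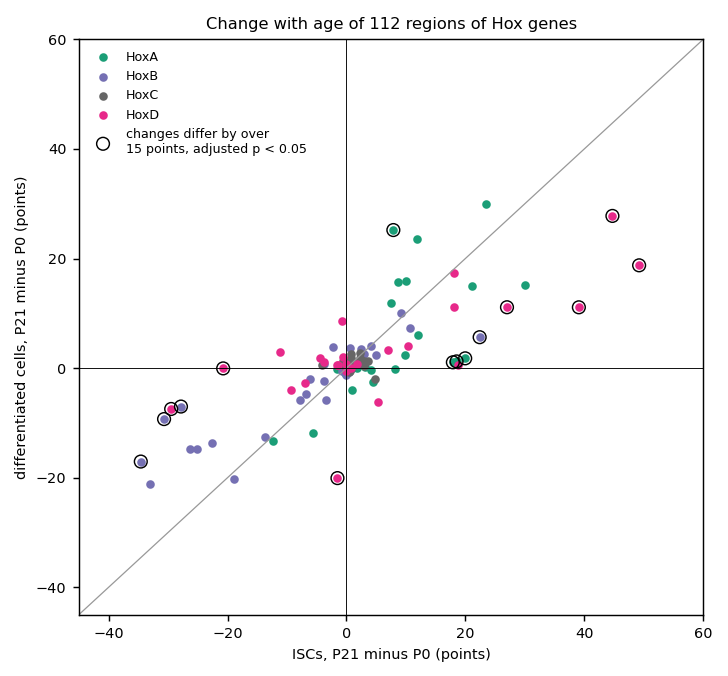
Change with age (P21 minus P0, percentage points) in differentiated cells against that in ISCs for the 112 tested regions of the Hox genes, coloured by cluster. Circles mark the 15 regions whose changes differed by more than 15 points with an adjusted p below 0.05, and the grey line marks equal changes. In 13 of the 15 the ISC change is the larger, the exceptions being the Hoxa2 body and the Hoxd11 last exon.

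Among regions, the changes differed by more than 15 points in 3 promoters (1.05% of all promoters), 4 bodies (0.45% of all bodies) and 8 last exons (1.26% of all last exons). All 15 passed the Wald test, a normal approximation on the calls, at an adjusted p below 0.05, and the ISC change was the larger in 13 of them. The last exon of Hoxd3 rose by 39.1 points in ISCs and by 11.1 in differentiated cells, and the Hoxb5 promoter fell by 27.8 and by 7.03 points. The body of Hoxd10 fell by 29.5 and by 7.47 points. For Hoxa2 the difference was the other way, with its body up by 7.88 points in ISCs and by 25.2 in differentiated cells.

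Differentiated cells were also compared with ISCs of the same age, which asks what differs along differentiation. These comparisons share libraries with those above and are given on their own. At P0, 14 Hox bins were higher in differentiated cells (0.900%, against 0.288% of all bins) and 20 were lower (1.29%, against 0.220%). At P21, 11 were higher (0.707%, against 0.0711%) and 25 were lower (1.61%, against 0.111%). The 34 and 36 bins called between populations stood against 219 and 136 called between ages. Thinning to equal calls gave 4 higher and 8 lower at P0, and 7 higher and 10 lower at P21. The share of all bins called after thinning was not counted, so these counts have no background.

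At P0 the called regions were the body of Hoxa2, with 64.3% in ISCs and 45.1% in differentiated cells (Fisher's exact test, adjusted p = 6.53e-09), and the promoter of Hoxb1, with 47.2% and 29.6% (adjusted p = 2.81e-20). By kind that is 1 promoter of 38 (1.29% of all promoters), 1 body of 36 (0.461% of all bodies) and 0 last exons (1.07% of all last exons). The Hoxb1 promoter kept this order at P21, with 43.5% and 30.4%. Both calls were lost when levels were averaged over bins.

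The longest blocks at P0 had 2 bins each. In differentiated cells the block at chr2:74564001-74564400 was higher (59.1% in ISCs and 82.6%), and the blocks at chr2:74530401-74530800 in the body of Hoxd10 (47.7% and 24.3%), chr11:96165001-96165400 in the body of Hoxb5 (53.5% and 33.5%) and chr6:52114201-52114600 at Hoxa2 (51.7% and 32.5%) were lower. In the Hoxd10 and Hoxb5 blocks, both of which lost methylation in ISCs with age, differentiated cells at P0 lay between ISCs at P0 and ISCs at P21.

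At P21, 0 promoters (0.873% of all promoters), 2 bodies (0.340% of all bodies) and 2 last exons (0.680% of all last exons) were called. The body of Hoxd4 stood at 69.1% in ISCs and 41.2% in differentiated cells (Fisher's exact test, adjusted p = 8.47e-09), the last exon of Hoxd3 at 61.9% and 42.7% (adjusted p = 1.02e-28) and the body of Hoxa6 at 47.4% and 31.2% (adjusted p = 0.00183). The last exon of Hoxd10 was higher in differentiated cells, at 26.1% and 44.2% (Fisher's exact test, adjusted p = 1.03e-10). The longest blocks were 3 bins at chr2:74573801-74574400 (73.0% in ISCs and 50.9%), 3 bins at chr6:52163001-52163600 (40.9% and 21.0%), 2 bins at chr2:74585001-74585400 in the last exon of Hoxd3 (59.7% and 32.9%) and, higher in differentiated cells, 2 bins at chr2:74532201-74532600 in the last exon of Hoxd10 (13.3% and 37.2%). Averaged over bins, the last exons of Hoxd3 and Hoxd10 differed by -13.9 and 10.2 points and were not called, and with the longest transcript the Hoxd4 body differed by -5.81 points and with promoters of 2 kb on each side the Hoxa6 body by -12.3, neither of them called. In HoxC 1 of 330 bins was called at P21 (0.303%, against 0.182% of all bins) and 0 at P0 (against 0.508% of all bins).

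The clusters also hold microRNA genes, which regulate messenger RNAs through the seed (bases 2 to 8) and several of which target Hox transcripts. Mature sequences from RefSeq (GRCm38.p6) show 2 seed families, with the seed in capitals.
miR-10a-5p (HoxB): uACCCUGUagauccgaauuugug
miR-10b-5p (HoxD): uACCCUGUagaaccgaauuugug
miR-196a-5p (HoxB, Mir196a-1): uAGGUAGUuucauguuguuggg
miR-196b-5p (HoxA): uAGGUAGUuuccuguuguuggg
The miR-10 pair differs at 1 of 23 bases, while the DNA at the genes of the pair changed in opposite directions in ISCs. The bin at Mir10a stood at 60.4% (46.9 to 72.4), 63.2% (52.7 to 72.6), 28.6% (18.4 to 41.5) and 40.6% (29.8 to 52.4), and was called lower in ISCs. The bin at Mir10b stood at 52.9% (42.4 to 63.2), 76.4% (70.3 to 81.5), 74.8% (67.5 to 81.0) and 77.1% (70.2 to 82.7), with ISCs at P0 below the other 3 libraries, and was called higher in ISCs with age and in differentiated cells at P0. Mir10a lies in the promoter of Hoxb4, which was called lower in ISCs, and Mir10b at the edge of that of Hoxd4, which was called higher. As given above, calls at both genes were lost under an alternative, at Hoxb4 with wider promoters and at the Hoxd4 promoter with the longest transcript.

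The bin at Mir196a-1 lost nearly all methylation in both populations, from 26.7% (19.6 to 35.2) to 0.625% (0.110 to 3.45) in ISCs and from 21.5% (16.6 to 27.4) to 2.27% (0.975 to 5.21) in differentiated cells. Mir196b in HoxA and Mir615 in HoxC stayed below 5% in the 4 libraries. Mir196a-2 in HoxC had 3.51%, 4.44%, 3.80% and 13.2%, the last value from 38 calls with an interval of 5.75 to 27.3, and was not called.

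A list of 29 regulators and cofactors of Hox genes, among them the Cdx activators, the Pbx and Meis partners and the Polycomb subunits, was set beside the members. Of its 29 promoters, 26 were below 10% in each library, 1 was called higher in ISCs at P21 (2.06% of all promoters were called) and 0 were called in differentiated cells (1.83% of all promoters). The one was that of Bmi1, a Polycomb subunit known from intestinal stem cells (21.4%, 34.8%, 46.2% and 43.0%). The last exon of Cdx2, the intestinal master regulator, fell in ISCs from 30% to 9.74% (differentiated cells 21.2% and 14.9%), and that of Kdm6b, a histone demethylase that opposes Polycomb, rose from 44.9% to 77.4% in ISCs and from 45.9% to 77.2% in differentiated cells. Over all genes 3.55% and 3.19% of last exons were called. Of the 28 bodies on the list 0 were called with age, where 1.20% and 1.08% of all bodies were.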

How the data were processed

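Genomic DNA of 4 libraries, 1 per group, was sequenced by the authors as 100-bp paired-end bisulfite reads, trimmed and mapped to mm9 with Bismark and Bowtie; the sources used here do not give their versions or say whether duplicate reads were removed. The authors deposited, for each CpG cytosine and strand, counts of all calls and of methylated calls, without normalization, and a fraction that is their ratio. Levels were recomputed from the deposited counts and the deposited fraction was not used further.

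Counts of both strands were summed, CpGs were placed in 200-bp bins, and bins with at least 2 CpGs and 10 calls in each library were kept. Positions at no reference CpG were left out. A bin was a CGI bin when at least 100 bp lay in windows of 500 bp with at least 25 CpGs. Promoter, body and last exon were taken from the GENCODE M1 transcript with the longest coding sequence, ties going to the shortest span, a choice made after the bins were seen. Regions sum the calls of the bins centred in them.

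Libraries were compared by two-sided Fisher's exact tests on the calls, with Benjamini-Hochberg adjustment over all autosomal bins or all regions of 1 kind, and called at an adjusted p below 0.05 and a difference above 15 points. The difference between populations in the change with age was a two-sided Wald test on levels. With 1 library per group these p-values cover counting error only and say nothing of the spread between animals, and a level carries a 95% Wilson interval. Tests and intervals take calls as independent, although CpGs of 1 read and PCR copies of 1 molecule are not. The p-values may therefore be too small and the intervals too narrow. Routines were tested on simulated data.

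The members, gene lists and comparisons were chosen with earlier results of these data known. Named are the genes with a called region (the 10 with the largest difference per comparison, others by name and range), the highest and lowest promoter, body and last exon of each cluster in ISCs at P0, and up to 3 longest runs of called bins per comparison and direction. The sequence of 1 of these runs is not reported here. The lists of markers and regulators are given as counts, with called regions named, and the microRNA genes of the clusters as values or counts. Alternatives changed the call minimum, the CpG minimum, the difference, the bin position, the depth, the promoter width, the averaging and the transcript. Python 3.11.15, numpy 2.4.6, scipy 1.17.1, pandas 2.3.3, numba 0.67.0 and matplotlib 3.10.9 were used.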

Additional observations from a re-analysis of the deposited data

Results flagged for a closer look

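In 15 gene regions the change between P0 and P21 differed between differentiated cells and ISCs by more than 15 points with an adjusted p below 0.05 (Wald test, adjusted over all regions of 1 kind), and each is given as the change in differentiated cells minus that in ISCs. In HoxD the difference was 22.0 points for the Hoxd10 body and 20.7 for its last exon, -18.6 for the Hoxd11 last exon, -28.0 for the Hoxd3 last exon, and -17.0, -30.5 and -15.9 for the promoter, body and last exon of Hoxd4. In HoxA it was 17.3 for the Hoxa2 body, and -16.8, -17.3 and -18.2 for the last exons of Hoxa5, Hoxa7 and Hoxa9. In HoxB it was -16.8 for the Hoxb2 promoter, 20.8 and 21.4 for the promoter and body of Hoxb5, and 17.5 for the Hoxb7 last exon. The largest adjusted p was that of the Hoxd11 last exon (0.0275) and the smallest that of the Hoxd3 last exon (2.34e-32). The test compares 4 libraries and does not cover the spread between animals. The value of the Hoxd4 promoter depends on the transcript, as its calls with age in both populations were lost when ties went to the longest span. The Hoxd4 body holds 1 tested bin, and its call between populations at P21 was also lost with that transcript. As given above, the ISC calls of the Hoxb2 promoter and the Hoxb5 body were lost with promoters of 2 kb on each side. That of the Hoxd4 last exon was lost when levels were averaged over bins. For regions, the difference between the changes was not recomputed under the alternatives.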

How the results depend on the processing

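No paired analysis was possible because each group has 1 library, and for the same reason no library could be left out. Minimums of 20 or 40 calls or 4 CpGs, bins shifted by 100 bp and an upper limit of 1000 calls left each count of called Hox bins over the 4 clusters within 1.5 times, but not each of the 32 counts per cluster: 3 moved further with 20 calls, 3 with 40 calls, 6 with 4 CpGs, 5 with shifted bins and 10 with calls thinned to the lowest library. Of the counts with age, HoxA losses were 5 in ISCs and 6 in differentiated cells with 4 CpGs, and 8 in differentiated cells when thinned, and HoxB gains in ISCs were 12 when thinned. HoxC had 1 gain in ISCs with shifted bins, and 1 loss in differentiated cells with 20 calls, 40 calls or 4 CpGs. A difference above 30 points gave 69 gains and 50 losses in ISCs with age, 16 and 16 in differentiated cells, 4 and 3 between populations at P0 and 2 and 3 at P21. Without a test, 15 points gave 192 and 169, 128 and 127, 78 and 61, and 66 and 99. With calls thinned to the lowest library, the counts were 4 and 8 at P0, 7 and 10 at P21, and 37 bins for the difference between populations. Shares of all bins after thinning were not counted.

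As methylated over all calls of the span, the change of the mean was 2.46 points for HoxA, -4.11 for HoxB and 3.53 for HoxD in differentiated cells, and 0.666 for HoxC and 5.41 for HoxD in ISCs. With 20 calls it was 2.44 for HoxA in differentiated cells, and with 1 CpG 1.03 for HoxA, 0.462 for HoxC and 2.45 for HoxD. For gene regions, 5 points gave 25 gains and 19 losses in ISCs, 18 and 15 in differentiated cells, 6 and 16 at P0 and 12 and 15 at P21. Averaging over bins gave 2 losses in differentiated cells, and 1 gain and 0 losses at P0. Promoters of 500 bp on each side gave 1 gain and 0 losses at P0, and those of 2 kb 2 and 1.

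Of 44 region calls, 22 kept their call under every alternative run and 22 lost it under at least 1. The Hoxd4 promoter in differentiated cells reversed, to -0.763 points, when transcript ties went to the longest span, an alternative chosen after seeing the data that moves the promoter to another start. Depth limits single bins: the median HoxC bin had 84.5 calls in ISCs at P0 and 129 in differentiated cells at P0, and the intervals cover counting error only.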
